A study of Homo sapiens with 2 samples.

Results

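The aldo-keto reductase family 1 (AKR1) was described in the human breast cancer line MDA-MB-231, an established triple-negative line, from 7 genes: AKR1A1, AKR1B1, AKR1B10, AKR1C1, AKR1C2, AKR1C3 and AKR1E2. They were taken by gene name from 60624 named genes. AKR1B15, AKR1C4 and AKR1D1 also carry the family name but are not among the 7, and are given further on. The family was picked from measured differences between the same libraries, so the levels and ratios of its members are a description with no test. The groups are a Control culture incubated for 24 h and a culture incubated for 24 h with 1 µM of an agent that the labels give only as CEL, with 1 RNA sequencing library each. What, if any, vehicle the Control received is not given in the labels. The study concerns macrophage-derived exosomes used with CEL against this kind of cancer, and both libraries described here are labelled as breast cancer cells.

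AKR1 enzymes are soluble oxidoreductases that use NADPH to turn aldehydes and ketones into alcohols. Their substrates include sugars, lipid peroxidation aldehydes, retinaldehyde, steroids and prostaglandins. AKR1B10 and the AKR1C genes are known targets of the transcription factor NRF2, which answers oxidative and electrophilic stress, and AKR1C enzymes set the local balance of active steroids in breast tissue.

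AKR1C1, AKR1C2 and AKR1C3 are close copies in 1 cluster, and their sequences are shown because they bear on how far the reads of each can be told apart. The coding sequences of AKR1C1 and AKR1C2, of 969 bases each in GENCODE 29, were identical at 950 of them and differed at 19. AKR1C3 was 91.4% identical to AKR1C1 and 91.0% to AKR1C2. The stretch of 90 coding bases that holds the most differences between AKR1C1 and AKR1C2, bases 73 to 162 counted from the A of the start codon, is printed for the 3 genes with each position that varies among them in capitals.
AKR1C1: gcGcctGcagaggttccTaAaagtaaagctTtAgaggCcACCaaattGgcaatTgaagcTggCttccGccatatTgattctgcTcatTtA
AKR1C2: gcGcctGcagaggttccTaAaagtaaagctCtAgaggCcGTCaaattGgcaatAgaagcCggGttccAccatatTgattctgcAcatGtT
AKR1C3: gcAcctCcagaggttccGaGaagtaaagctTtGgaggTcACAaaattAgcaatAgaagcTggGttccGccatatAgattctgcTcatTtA
Even here AKR1C1 and AKR1C2 differed at 10 of 90 bases. Over the whole coding sequence, 54.3% of the 50-base windows of AKR1C1, 57.1% of those of AKR1C2 and 23.0% of those of AKR1C3 also occurred in transcripts of another gene. With 150-base windows these shares were 4.63%, 7.32% and 2.68%. The sources used here give neither the read length nor how reads that align to several places were counted. This leaves uncertain how reads were split among these 3 genes and how many were left uncounted.

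The start regions of AKR1C1 and AKR1C2 are also alike, and are shown as the most alike pair among the windows of different genes here. Both genes had a ratio of CEL to Control whose counting interval lay above 1, but so did AKR1B1, AKR1B10 and AKR1C3. The windows run from 250 bases before to 50 bases after the start in RefSeq (GRCh38.p14), at chr10:4963165-4963464 on the plus strand for AKR1C1 and chr10:5003808-5004107 on the minus strand for AKR1C2, 5′ to 3′ along each gene, with the bases that differ or have no partner in capitals.
AKR1C1: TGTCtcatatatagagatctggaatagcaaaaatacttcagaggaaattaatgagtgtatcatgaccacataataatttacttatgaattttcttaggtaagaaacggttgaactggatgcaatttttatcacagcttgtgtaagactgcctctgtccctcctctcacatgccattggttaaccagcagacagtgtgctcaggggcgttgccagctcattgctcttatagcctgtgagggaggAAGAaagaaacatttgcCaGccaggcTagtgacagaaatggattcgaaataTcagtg
AKR1C2: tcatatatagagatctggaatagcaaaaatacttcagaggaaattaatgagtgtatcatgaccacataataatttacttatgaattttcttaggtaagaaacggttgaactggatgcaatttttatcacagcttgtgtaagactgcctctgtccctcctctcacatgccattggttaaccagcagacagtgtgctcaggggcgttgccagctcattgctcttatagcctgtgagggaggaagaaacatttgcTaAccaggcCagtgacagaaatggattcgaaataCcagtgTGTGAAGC
Of 300 bases, 288 were identical between them. The alignment left 4 mismatches and 1 run of 4 bases present in AKR1C1 alone, apart from the ends, where the windows are offset. By aligned columns AKR1C1 and AKR1C2 were 93.5% identical, and the listed AKR1C3 windows were 69.4% to 73.5% identical to either. The antioxidant response element core TGACNNNGC, the letters that NRF2 and its small MAF partners bind, had 0 matches on either strand in the windows of the 6 members that the RefSeq table lists (AKR1A1, AKR1B1, AKR1C1, AKR1C2, AKR1C3 and AKR1E2), against 13.3% of all 35116 windows. The AP-1 form TGANTCA also had 0 matches in those windows, against 7.71%. With so few windows nothing is read from 0 matches, and AKR1B10 has no listed window. The windows of AKR1C2, AKR1C3 and AKR1E2 lie inside the printed gene coordinates, so any starts further out were not covered. A CCAAT box on the reverse strand stood 77 bases before the start in AKR1C1 and 81 in AKR1C2 by the position of its leftmost base, and AKR1C3 had 1 in each of its listed start windows, 73 and 86 bases before the start. CCAAT was not particular to these genes: on the forward strand AKR1B1 had 1 match and AKR1E2 had 3 in each of their listed windows, and AKR1A1 had 0. That motif was found in 34.6% of all windows. These matches describe letters in short windows only and say nothing of binding.

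Reads in genes came to 14821148 in the Control library and 17199398 in the CEL library. The deposited values are FPKM, which scale the reads of a gene by its length and by the reads of its library. Markers of the line were read first. VIM, CD44, KRT8, KRT18, ITGB1 and AXL, listed as high in this line, lay between 145 and 1817 FPKM, and the hormone receptor genes ESR1 and PGR were at 0 in both libraries. Of the other genes listed as low, CDH1 was under 1 FPKM, but ERBB2 was at 71.7 and 48.8 FPKM, EPCAM at 17.2 and 8.97 FPKM and GATA3 at 10.8 and 8.60 FPKM in Control and CEL. The 10 macrophage, fibroblast and endothelial markers summed to 16.9 and 16.8 FPKM, with PDGFRB highest at 11.4 and 12.8 FPKM. With 1 library in each group, the spread between cultures is unknown, and intervals below are 95% counting intervals of the reads (exact Poisson for a level, exact conditional binomial for a ratio). They cover counting error and compare these libraries, not the conditions. In bulk RNA, fewer cells expressing a gene and less RNA per cell cannot be told apart.

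AKR1B10, AKR1C1, AKR1C2 and AKR1C3 had more reads per length and depth in CEL than in Control, with ratios from 1.92 to 28.4, while AKR1A1, AKR1B1 and AKR1E2 had ratios from 1.00 to 1.13. The counting intervals of the levels did not overlap between libraries for those 4 members and for AKR1B1, and overlapped for AKR1A1 and AKR1E2. For calls, 1 FPKM was added to both values as a pseudocount, the CEL value was divided by the Control value and log2 was taken. A gene is called higher from a log2 fold of 1 upwards and lower from −1 downwards, which is 2-fold on this scale. Only genes that reached 1 FPKM in a library, here called measured, were counted. By this rule 2 of 7 members, AKR1B10 and AKR1C1, were called higher, where 2.70% of 13745 measured genes were, and 0 were called lower, where 3.24% were. Because the family was picked on this contrast, nothing is read from these shares. The median log2 fold was 0.91 over the 7 members and 0.00 over all measured genes. AKR1B10, AKR1C1 and AKR1C2 reached 1 FPKM in CEL alone, and a gene that passes the filter only where it is high had to differ. Of 552 genes that passed in CEL alone, 156 were called higher.

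**Figure D1:**
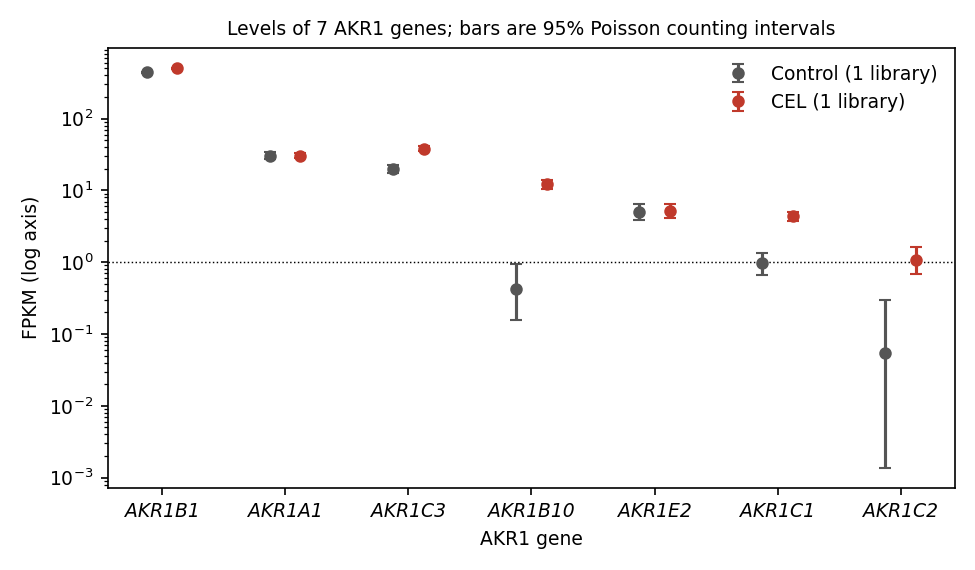
FPKM of the 7 AKR1 genes (vertical log axis) in the Control library (grey) and the CEL library (red), with bars for 95% Poisson counting intervals and a dotted line at 1 FPKM. AKR1B1 stands far above the rest in both libraries. The intervals of AKR1B1, AKR1B10, AKR1C1, AKR1C2 and AKR1C3 do not overlap between libraries, while those of AKR1A1 and AKR1E2 do. The share of all measured genes with such a gap was not counted.

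AKR1B10 (ENSG00000198074; GRCh38 chromosome 7, 134527567 to 134541412) encodes a reductase of retinaldehyde and of lipid-derived aldehydes that is normally abundant in the intestine. It stood at 0.428 FPKM (0.157 to 0.931) in Control, from 6 reads, and at 12.2 FPKM (10.5 to 14.0) in CEL, from 198 reads. The intervals did not overlap, and the ratio of CEL to Control was 28.4 (12.8 to 78.4). Its log2 fold of 3.21 was exceeded by 1 of 13745 measured genes. Of its 50-base coding windows, 28.5% were shared with AKR1B15 or the pseudogene AKR1B10P1, both listed at 0 in the 2 libraries.

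AKR1C1 (ENSG00000187134; chromosome 10, 4963253 to 4983283) encodes a hydroxysteroid dehydrogenase that inactivates progesterone. It was at 0.968 FPKM (0.667 to 1.36) in Control and 4.38 FPKM (3.75 to 5.08) in CEL, from 33 and 173 reads. These levels rest on a printed length of 2299 bases, the longest among the members. The ratio was 4.52 (3.10 to 6.77) and the log2 fold 1.45, which 101 measured genes exceeded. With a pseudocount of 5 FPKM in place of 1 the log2 fold was 0.65 and the call was lost.

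AKR1C2 (ENSG00000151632; chromosome 10, 4987400 to 5018031) encodes an enzyme that inactivates the androgen dihydrotestosterone. It was the lowest member in both libraries, at 0.0540 FPKM (0.00137 to 0.301) from 1 read in Control and 1.07 FPKM (0.679 to 1.61) from 23 reads in CEL. The ratio of 19.8 had an interval from 3.22 to 816, so its size is hardly fixed by the reads. Its log2 fold of 0.97 lay just under the 2-fold mark, next to AKR1C3 at 0.91, while AKR1C1 was the called member nearest above it. With a pseudocount of 0.1 FPKM it was 2.93, and on the TPM scale, where each library is rescaled to 1 sum, it was 1.25, both past the mark.

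AKR1C3 (ENSG00000196139; chromosome 10, 5035354 to 5107686) encodes an enzyme that makes testosterone from androstenedione and also prostaglandin F from prostaglandins H and D. It was the most abundant AKR1C gene, at 19.8 FPKM (17.5 to 22.4) from 264 reads in Control and 38.1 FPKM (35.1 to 41.3) from 588 reads in CEL. The ratio was 1.92 (1.66 to 2.23). The intervals of the levels did not overlap, and the log2 fold of 0.91 stayed under the 2-fold mark. AKR1C3 made up 95.1% of the summed FPKM of AKR1C1, AKR1C2 and AKR1C3 in Control and 87.5% in CEL, and AKR1C1 made up 4.64% and 10.1%. These shares depend on the printed lengths, 898 bases for AKR1C3 and 2299 for AKR1C1. They also depend on how reads shared among genes were counted. Of 50-base coding windows, 54.3% in AKR1C1 and 57.1% in AKR1C2 were shared with another gene, against 23.0% in AKR1C3. In reads AKR1C1 held a larger part, with 33 of 298 in Control and 173 of 784 in CEL.

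Summing the reads of the 3 close copies removes the question of how reads were split among them, though not of reads left uncounted. The Control library held 298 such reads and the CEL library 784, and the ratio per depth was 2.27 (1.98 to 2.60). For AKR1C1 and AKR1C2 alone, the nearest pair, the sum was 34 and 196 reads, a ratio of 4.97 (3.44 to 7.38). Both intervals lay above 1.

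**Figure D2:**
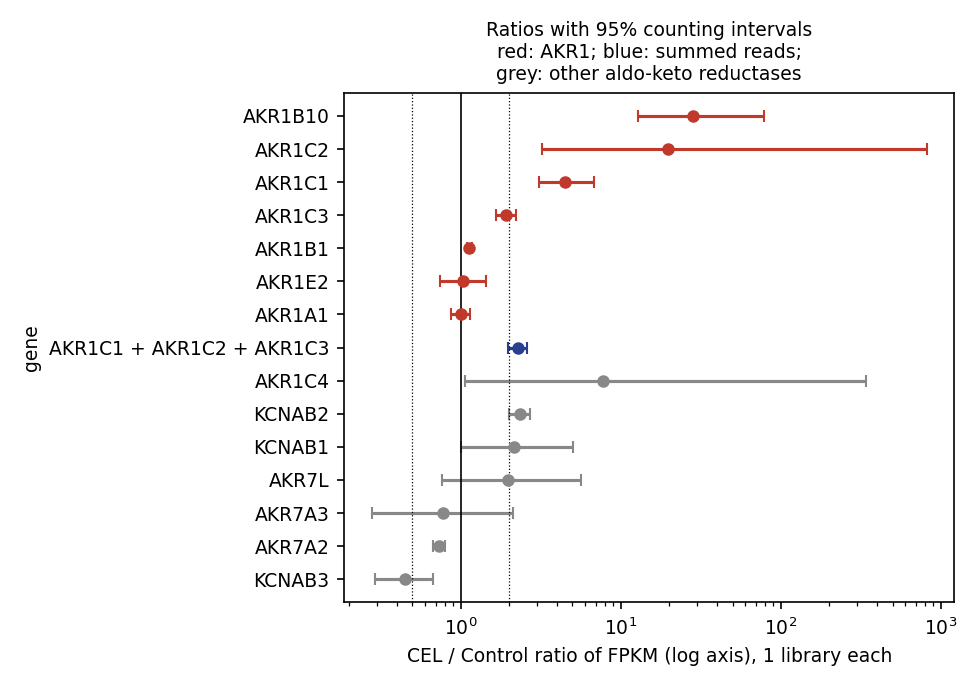
Ratio of CEL to Control FPKM (horizontal log axis) with 95% counting intervals for the 7 AKR1 genes (red), for the summed reads of AKR1C1, AKR1C2 and AKR1C3 (blue) and for other aldo-keto reductases with reads in both libraries (grey); dotted lines mark 2-fold. AKR1B10 is at 28.4, and AKR1A1 and AKR1E2 have intervals that span 1.

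The remaining 3 members were close to equal. AKR1B1 (ENSG00000085662; chromosome 7, 134442356 to 134459284) encodes aldose reductase, which turns glucose into sorbitol at the start of the polyol pathway. It was at 441 FPKM (430 to 452) in Control and 498 FPKM (487 to 510) in CEL, from 5810 and 7619 reads. The ratio was 1.13 (1.09 to 1.17), and the log2 fold of 0.18 was −0.07 after the length trend described further on was taken out, so its direction depends on that choice. AKR1B1 held 88.6% of the summed FPKM of the 7 members in Control and 84.5% in CEL, and ranked 151 and 160 among all measured genes.

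AKR1A1 (ENSG00000117448; chromosome 1, 45550543 to 45570049) encodes aldehyde reductase, a broadly expressed enzyme that reduces many aldehydes, glucuronate among them. It was at 30.6 FPKM in both libraries, with intervals of 27.6 to 33.8 in Control and 27.9 to 33.6 in CEL, from 387 and 450 reads. The ratio was 1.00 (0.873 to 1.15). AKR1E2 (ENSG00000165568; chromosome 10, 4786629 to 4848062), a reductase of the sugar anhydrofructose, was at 5.03 FPKM (3.91 to 6.38) from 68 reads and 5.23 FPKM (4.16 to 6.49) from 82 reads, a ratio of 1.04 (0.744 to 1.45). None of the coding windows of AKR1A1 or AKR1E2, at 50 bases or longer, was shared with another gene.

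The order of the members changed between libraries. In Control it ran AKR1B1, AKR1A1, AKR1C3, AKR1E2, AKR1C1, AKR1B10, AKR1C2, and the counting intervals of AKR1C1 and AKR1B10, and of AKR1B10 and AKR1C2, overlapped. In CEL it ran AKR1B1, AKR1C3, AKR1A1, AKR1B10, AKR1E2, AKR1C1, AKR1C2, and the intervals of AKR1E2 and AKR1C1 overlapped. AKR1C3 thus passed AKR1A1, and AKR1B10 passed AKR1E2. This order is of FPKM and depends on the printed lengths and on how reads shared among genes were counted. In CEL, AKR1C1 had 173 reads at 2299 bases and AKR1E2 had 82 at 912. Without AKR1B1, the other 6 members summed to 56.9 FPKM in Control and 91.5 FPKM in CEL. Within that sum AKR1B10 went from 0.752% to 13.3%, AKR1C3 from 34.9% to 41.6% and AKR1A1 from 53.7% to 33.5%.

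**Figure D3:**
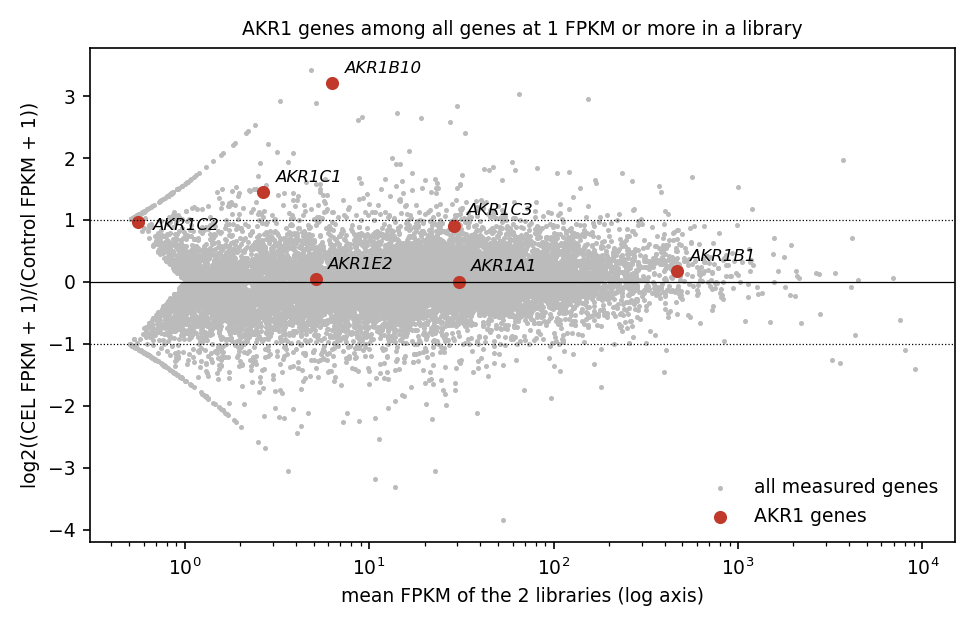
Log2 fold with a pseudocount of 1 FPKM (vertical) against the mean FPKM of the 2 libraries (horizontal log axis) for all 13745 measured genes (grey) and the AKR1 genes (red); dotted lines mark 2-fold. AKR1B10 and AKR1C1 lie above the upper line, AKR1C2 and AKR1C3 just under it, and AKR1A1, AKR1B1 and AKR1E2 near 0.

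Gene length moved with the ratio across these libraries, shorter genes being higher in CEL. At the lengths printed for AKR1A1, AKR1B1, AKR1B10, AKR1C3 and AKR1E2, 854 to 946 bases, the running median of the log2 fold was 0.19 to 0.25, and at AKR1C1, printed at 2299 bases, it was −0.05. With this trend removed AKR1B10 was at 3.01, AKR1C2 at 0.88, AKR1C3 at 0.68, AKR1E2 at −0.16 and AKR1A1 at −0.25, and AKR1C1 kept its call. The part of length in these differences was not tested further.

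Genes next to the members were compared because the family lies in clusters. AKR1B1 and AKR1B10 are 68.3 kb apart on chromosome 7, and AKR1E2, AKR1C1, AKR1C2 and AKR1C3 span 321 kb on chromosome 10. Within 500 kb of the chromosome 7 pair, 5 other protein-coding genes were measured, EXOC4, SLC35B4, BPGM, CALD1 and AGBL3. Their log2 folds ran from −0.09 to 0.38 and 0 were called. Over all measured genes 2.70% were called higher and 3.24% lower. With so few neighbours, 0 called, here and around AKR1A1, is near those shares. AKR1B15, a close relative that lies beside AKR1B10, had 0 reads in both libraries. The limit taken for a count of 0, 3 reads, comes to 0.130 FPKM (Control) and 0.112 FPKM (CEL) at its length, and the upper ends of its Poisson intervals are 0.159 and 0.137 FPKM. Around the chromosome 10 cluster, NET1 was the only measured protein-coding gene outside the members, at 69.9 and 66.6 FPKM. AKR1C4, the liver member of the same cluster, was counted with 1 Control read and 9 CEL reads, under 1 FPKM in both, and its ratio was 7.76 (1.07 to 340). Of its 50-base coding windows, 17.6% also occurred in AKR1C1, AKR1C2, AKR1C3 or AKR1C5P, so the source of these few reads is uncertain. Around AKR1A1 on chromosome 1, 13 neighbours were measured and 0 called, namely ZSWIM5, TOE1, TESK2, CCDC163, MMACHC, PRDX1, NASP, CCDC17, GPBP1L1, TMEM69, IPP, MAST2 and PIK3R3. Their log2 folds ran from −0.70 for TESK2 to 0.82 for PRDX1, a peroxiredoxin that was at 191 and 339 FPKM.

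**Figure D4:**
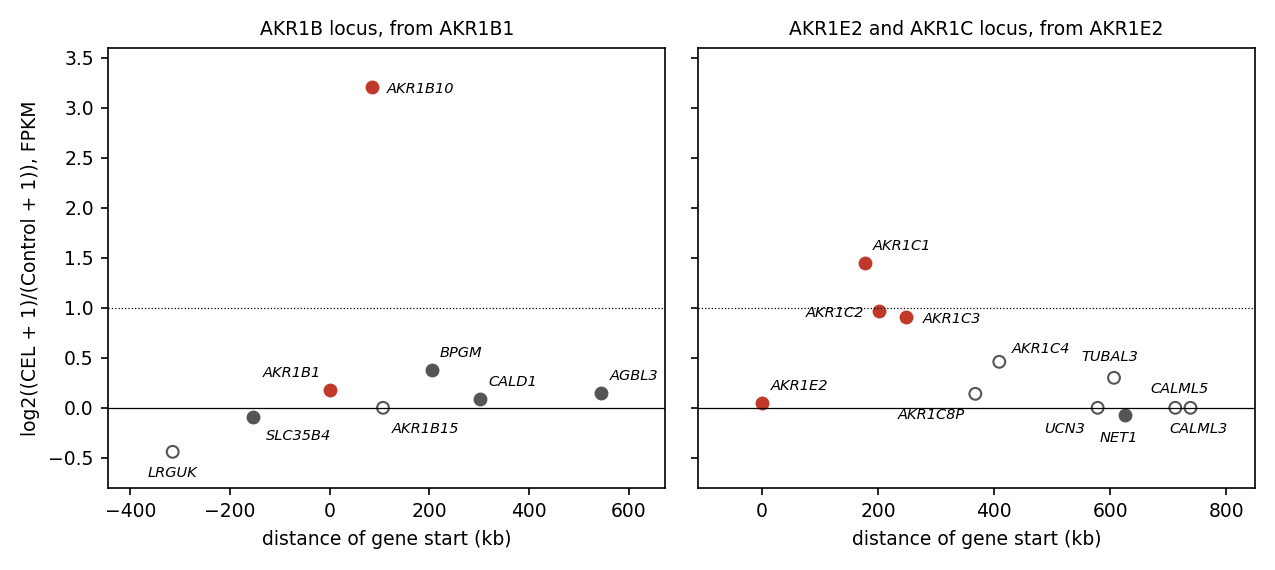
Log2 fold with a pseudocount of 1 FPKM against the distance of each gene's start from that of AKR1B1 (left) or AKR1E2 (right), in kb; red marks AKR1 genes described here, grey other protein-coding genes, open circles genes under 1 FPKM in both libraries. EXOC4, whose start lies farther away, is not drawn, and the measured neighbours lie near 0 while AKR1B10 and AKR1C1 lie above the dotted 2-fold line.

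Other aldo-keto reductases were mostly low. Of 10 listed genes with a row, 3 were measured, of which 1 was called higher and 0 lower, against 2.70% and 3.24% of all measured genes. KCNAB2, a beta subunit of voltage-gated potassium channels that belongs to the superfamily, was at 7.30 FPKM (6.38 to 8.31) in Control and 17.1 FPKM (15.7 to 18.5) in CEL, a log2 fold of 1.12. KCNAB3, another such subunit, was at 3.47 and 1.56 FPKM, a log2 fold of −0.80. AKR7A2, which reduces succinic semialdehyde, was at 80.4 and 59.2 FPKM, a ratio of 0.736 (0.675 to 0.803). AKR7A3, AKR7L and KCNAB1 were under 1 FPKM in both libraries with ratios whose intervals include 1 (0.279 to 2.12, 0.767 to 5.66 and 0.999 to 5.03). AKR1D1, a steroid reductase of bile acid synthesis, had 1 and 0 reads, and AKR1C8P had 0 and 2. The 14 rows named as AKR1 pseudogenes, AKR1C8P among them, held 19 reads in all in Control and 26 in CEL, of which AKR1C7P had 17 and 23 (1.54 and 1.79 FPKM).

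Related enzymes were read from lists chosen with earlier results of these data known, so their counts are descriptions. For each list, the share over all measured genes is 2.70% called higher and 3.24% called lower. Among carbonyl, quinone and enone reductases of other families, 2 of 17 measured genes were called higher and 0 lower, with a median log2 fold of 0.46. NQO1, the quinone reductase, was at 106 and 364 FPKM, and PTGR1, which reduces the double bond of prostaglandins and enals, at 46.9 and 160 FPKM. BLVRB, a biliverdin and flavin reductase, had a ratio of 2.02 (1.83 to 2.23) but lay just under the mark on the log2 scale. CBR1, the carbonyl reductase of prostaglandins and quinones, was at 33.9 and 60.9 FPKM and NQO2 at 36.5 and 64.4 FPKM. CRYZ, a quinone oxidoreductase, went the other way at 13.4 and 6.87 FPKM.

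The list of steroid enzymes had 12 measured genes, 0 called in either direction, and a median log2 fold of −0.15. HSD17B12 was at 31.8 and 50.9 FPKM, HSD17B10 at 53.5 and 81.9 FPKM and SRD5A3, of the steroid reductase family, at 2.63 and 4.15 FPKM. HSD17B4, of peroxisomal beta-oxidation, was at 65.9 and 46.7 FPKM, HSD17B7 at 8.52 and 5.92 FPKM and HSD3B1 at 1.25 and 0.420 FPKM.

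The polyol and glycation enzymes, which take up the product of AKR1B1 or clear reactive sugars, had 0 of 13 measured genes called and a median of 0.19. SORD, which turns sorbitol into fructose, was at 11.5 and 18.2 FPKM. GLO1 and HAGH, which act in turn on methylglyoxal, went opposite ways, GLO1 at 136 and 182 FPKM and HAGH at 28.8 and 18.7 FPKM. KHK, the fructokinase, was at 3.38 and 1.76 FPKM, FN3K, which helps remove fructose from proteins, at 6.68 and 3.48 FPKM, and HK2, a hexokinase, at 24.6 and 42.9 FPKM.

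Prostaglandin enzymes, where AKR1C3 and AKR1B1 act as prostaglandin F synthases, had 1 of 8 measured genes called higher, PTGR1, and 1 lower. The lower gene was PTGES, which makes prostaglandin E from the same precursor, at 19.9 FPKM (18.3 to 21.7) in Control and 2.60 FPKM (2.07 to 3.23) in CEL, a log2 fold of −2.54. PTGS1, a cyclooxygenase, was at 3.65 and 6.47 FPKM, TBXAS1, the thromboxane synthase, had a log2 fold of 0.53, and PTGES3 was at 262 and 316 FPKM. The list had a median of 0.40.

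Retinaldehyde enzymes, which meet AKR1B10 and AKR1C3 at retinaldehyde, had 1 of 9 measured genes called higher, 0 lower and a median of −0.10. RDH10, which oxidises retinol to retinaldehyde, was at 3.58 and 8.98 FPKM. RDH11, which reduces retinaldehyde, was at 42.2 and 75.7 FPKM, RDH14 at 10.6 and 15.2 FPKM, DHRS3, also a retinaldehyde reductase, at 13.1 and 7.98 FPKM, RDH5 at 2.05 and 0.851 FPKM, and ALDH1A3, which makes retinoic acid, at 6.01 and 4.07 FPKM.

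NRF2 with its partners and targets, a list without AKR1 genes, had 12 of 29 measured genes called higher and 0 lower, with a median of 0.88. Over all measured genes these shares were 2.70% and 3.24%. The largest log2 folds were those of FTH1, SLC7A11, FTL, HMOX1, NQO1 and PIR, from 1.57 to 2.95, of which PIR, an iron-binding nuclear protein, was at 15.2 and 47.1 FPKM. Over the whole list the log2 folds ran from −0.21 for IDH1 to 2.95 for FTH1, with NFE2L2, the NRF2 gene itself, at −0.03. AKR1B10 lay above that range. AKR1C1, at 1.45, AKR1C2, at 0.97, and AKR1C3, at 0.91, lay within it and above the list median. AKR1A1, AKR1B1 and AKR1E2 lay near the median of all genes. A part of NRF2 in these differences was not tested.

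**Figure D5:**
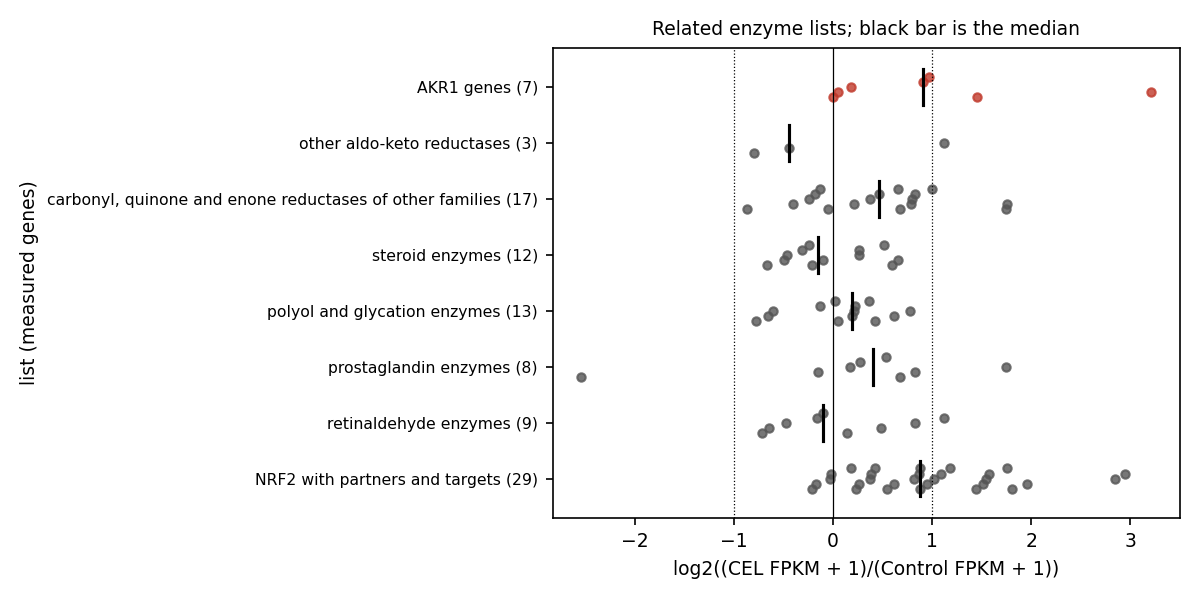
Log2 fold with a pseudocount of 1 FPKM for each measured gene of the AKR1 family (red) and of 7 related lists (grey), the number of measured genes in brackets, the median as a black bar and dotted lines at 2-fold. The AKR1 genes split into 3 near 0, a pair near the 2-fold line and a pair beyond it, and PTGES is the gene farthest to the left.

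The genes nearest to the members in their pair of levels were found by Euclidean distance of log2(FPKM + 1) over the 2 libraries. For AKR1B10 they were CHCHD10 (distance 0.837), SUN3 (0.991) and F2RL2 (1.07). CHCHD10 was at 0.856 and 6.85 FPKM, SUN3 at 1.72 and 15.7 FPKM and F2RL2 at 0.338 and 5.30 FPKM, so SUN3 was above AKR1B10 in both libraries, F2RL2 below it in both, and CHCHD10 above it in Control and below it in CEL. For AKR1B1 they were CCT5 (0.0134), HNRNPC (0.0356) and ANXA1 (0.0462), all between 427 and 503 FPKM in either library. Over 2 libraries such likeness is a description of levels only.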

How the data were processed

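Total RNA of 1 Control and 1 CEL culture was sequenced. The deposited table gives FPKM computed by the authors, with a gene length and GRCh38 coordinates; HTSeq 0.5.4 is named per the submitters' processing notes, and for the aligner, annotation release, filters and strand setting nothing is given in the sources used here. Whole reads were recovered with the deposited gene length: FPKM times length was a whole multiple of 1 step per library for 68.7% of 24783 detected genes, and a further 31.2% were solved at 1 shared length, both to a relative tolerance of 1e-06. The reads of 38 genes were not recovered, with no member but the marker ITGB1 among them. Recovered reads came to 95.8% of Control and 95.4% of CEL reads. Unnamed rows (354, with 0.298% of Control and 0.265% of CEL reads) were left out. Differences are log2((CEL + 1)/(Control + 1)) over genes that reached 1 FPKM in a library; this scale understates the change of low genes. With 1 library per group no test was made. The read recovery and the intervals were tested on simulated data.

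The members and lists were chosen with earlier results of these data known. Named were all members, other aldo-keto reductases, measured protein-coding neighbours within 500 kb, up to 6 genes per list by absolute log2 fold, and the 3 nearest genes to each of 2 members. Promoters are RefSeq's (GRCh38.p14); coding sequences, biotypes and exon overlap (0 exonic bases for each member) are from GENCODE 29. Alternatives were other pseudocounts, filters and scalings, and removal of the length trend (running median over 501 protein-coding genes at 10 FPKM or more). Python 3.11.15, numpy 2.4.6, pandas 2.3.3, scipy 1.17.1, Biopython 1.88 and matplotlib 3.10.9 were used.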

Additional observations from a re-analysis of the deposited data

How the results depend on the processing

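Of 7 members, 2 were called higher; the count was 1 with a pseudocount of 5 FPKM (AKR1B10 alone) and 1 with a filter at 5 FPKM, which removes AKR1C1 and AKR1C2, and it was 3 with a pseudocount of 0.1 FPKM and on the TPM scale, where AKR1C2 passed. AKR1B10 stayed past the mark in all 8 alternatives, from 1.66 to 4.54. AKR1C3 ranged from 0.68 to 0.94, and no alternative called a member lower. Over all genes, 371 higher and 446 lower became 590 and 880 with a pseudocount of 0.1 FPKM, 110 and 85 with 5 FPKM, 214 and 208 with a filter at 5 FPKM and 173 and 691 without the length trend, and 714 were lower on the TPM scale. Over all lists, 4 genes were lower with a pseudocount of 0.1 FPKM, against 1. Taking reads without rounding changed no member's ratio. No paired analysis was possible because each group has 1 library, and no replicate could be left out. AKR1C2 and AKR1B10 are limited by depth, with 1 and 6 Control reads.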
